A study of Mus musculus with 454 samples.

Results

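This report describes the numbered cadherins (Cdh genes) and the non-clustered protocadherins of mouse vagal sensory neurons, across neuron types and across the target codes of singly picked neurons. The members are every gene whose symbol is Cdh or Pcdh followed by digits, which leaves out the clustered Pcdha, Pcdhb and Pcdhg genes. There were 35 of them, 23 cadherins and 12 protocadherins, of 28001 genes in the droplet table and 36920 rows in the table of picked cells, and all 35 were in both.

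Cadherins are calcium-dependent adhesion proteins of the cell surface. Most bind the same cadherin on the neighbouring cell and are tied to the actin cytoskeleton inside the cell through catenins. Type I cadherins such as N-cadherin (Cdh2) act broadly, whereas type II cadherins and the delta protocadherins are expressed in combinations that differ between neuron types, and are known for roles in neuron sorting, axon outgrowth and synaptic matching.

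All animals were wild type C57BL/6 mice, and nodose ganglia, which hold the cell bodies of vagal sensory neurons, were dissociated with papain, collagenase and dispase. One library was made by droplet capture (10x Genomics) from animals of 6 weeks. Further cells, from animals of 8 to 12 weeks, were amplified singly by Smart-seq2, and those with at least 2000 genes detected were used. Header lines of the picked-cell table give each cell's mouse and a target code. The codes were GastG (5 mice, 60 cells), GastP (3 mice, 45 cells), IntP (4 mice, 45 cells), IntM (3 mice, 45 cells), IntD (3 mice, 35 cells), IntL (3 mice, 44 cells) and Port (8 mice, 120 cells). The sources used here do not expand the codes, so "Gast" below means both Gast codes and "Int" the 4 Int codes. A further 53 cells of 4 mice carried the code na and entered no comparison. The mouse is the replicate, with 29 mice in the comparisons, and p-values measure the spread between these mice.

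Depth was high in both data sets. The 1087 droplet neurons had a median of 56119 UMIs (unique transcript molecules; 13505 to 169263), and passing picked cells a median of 1617516 reads. Intervals given for the droplet library are 95% intervals that cover counting error only, since it is 1 library. The droplet neurons fell into 28 clusters, of which 2, with 47 cells, carried markers of the jugular type. The other 26, with 1040 cells, were counted as nodose-like because they did not meet the jugular rule. Members were left out of the genes used for clustering.

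A block of 5 members lies on mouse chromosome 15, and their windows upstream of the start are shown because 3 of them were higher in neurons of one pair of target codes. Between base 13028701 and base 23474418 (mm10, GENCODE vM21), a span of 10.45 megabases, the annotation holds 6 protein-coding genes. Of those 6, 5 are the type II cadherins Cdh6, Cdh9, Cdh10, Cdh12 and Cdh18, and the 1 other is Acot10. The 250 bases before the RefSeq start (GRCm38.p6) of Cdh6 (chr15:13173676-13173925, minus strand), Cdh10 (chr15:18820079-18820328, plus strand) and Cdh18 (chr15:23036213-23036462, plus strand) follow, with that of the X-linked Pcdh19 (chrX:133688994-133689243, minus strand), the member that changed most in the other direction. Each is written 5′ to 3′ along the gene, and capitals mark CpG dinucleotides.
Cdh6: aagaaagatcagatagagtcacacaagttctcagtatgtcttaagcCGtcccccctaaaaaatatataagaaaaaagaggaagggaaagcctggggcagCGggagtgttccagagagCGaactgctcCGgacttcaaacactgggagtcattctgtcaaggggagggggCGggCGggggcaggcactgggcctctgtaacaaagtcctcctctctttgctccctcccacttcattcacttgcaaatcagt
Cdh10: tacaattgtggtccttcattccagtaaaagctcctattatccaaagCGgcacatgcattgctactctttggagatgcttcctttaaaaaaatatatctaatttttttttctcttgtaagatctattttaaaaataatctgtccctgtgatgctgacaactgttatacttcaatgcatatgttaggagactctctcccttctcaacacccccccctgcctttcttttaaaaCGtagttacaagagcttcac
Cdh18: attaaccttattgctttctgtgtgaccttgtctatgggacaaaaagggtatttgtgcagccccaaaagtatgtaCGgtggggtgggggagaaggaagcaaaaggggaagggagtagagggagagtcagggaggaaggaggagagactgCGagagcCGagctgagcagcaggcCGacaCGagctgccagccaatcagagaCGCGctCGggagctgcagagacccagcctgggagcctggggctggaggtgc
Pcdh19: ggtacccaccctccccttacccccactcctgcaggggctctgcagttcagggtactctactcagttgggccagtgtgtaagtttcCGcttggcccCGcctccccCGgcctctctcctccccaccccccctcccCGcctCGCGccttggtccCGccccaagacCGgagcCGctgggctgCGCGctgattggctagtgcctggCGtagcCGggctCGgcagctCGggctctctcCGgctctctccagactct
The 4 windows differ in base composition. The Cdh10 window was 36.8% G or C with 2 CpG, the Cdh6 window 51.2% with 6, the Cdh18 window 58% with 8 and the Pcdh19 window 69.2% with 16. The medians over 32851 such windows were 52.4% and 6. The windows of Cdh10 and Cdh18 lie inside longer GENCODE gene models. None of the 4 held the homeodomain core TAATTA (in 4.84% of all windows), the E-box CAGGTG or CACCTG (17.2%), or the TATA box TATAAA or TTTATA (12.4%), where the second letters of each pair are the other strand. The GC box GGGCGG, or CCGCCC on the other strand, was at 2 places in the Cdh6 window and at 1 in the Pcdh19 window, against 32.7% of all windows holding at least 1. Of the 35 members, 22 had a window in the table.

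In droplet neurons the family was carried by a few abundant members. Each neuron had UMIs of 8 members at the median (2 to 17), and the members together took 620.7 CPM (UMIs scaled to a common total per cell group). Pcdh17, Cdh2 and Pcdh9 alone gave 58.9% of those UMIs. Droplet UMIs are counted once per molecule, so these levels are not divided by transcript length. There were 15 members with UMIs in 20% of neurons or more.

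Among the type I cadherins, Cdh2 (N-cadherin) was near universal, at 118.4 CPM and with a UMI in 97.5% of neurons. Its highest cluster was only 1.82 times the other neurons. Cdh4 (R-cadherin) had a UMI in 41.1% of neurons at 12.7 CPM. Cdh1 (E-cadherin, the cadherin of epithelia) had one in 22.8% at 10.5 CPM. Cdh15 (M-cadherin, known from muscle) stood at 4.06 CPM and Cdh3 (P-cadherin) at 9 UMIs in all.

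Of the 13 type II cadherins, Cdh22 was the highest at 16.4 CPM, with a UMI in 41.3% of neurons, followed by Cdh10 at 9.61 CPM (33.4%) and Cdh11 at 7.81 CPM (23%). Cdh18 (2.998 CPM), Cdh19 (2.73 CPM) and Cdh12 (2.38 CPM) were sparser. The other 7 (Cdh5, Cdh6, Cdh7, Cdh8, Cdh9, Cdh20 and Cdh24) each had less than 1 CPM. Cdh13 (T-cadherin, held in the membrane by a lipid anchor and without a cytoplasmic tail) was at 10.8 CPM and in 23.3% of neurons.

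The delta protocadherins held many of the abundant members. Pcdh17 led all members at 180.2 CPM (96.8% of neurons), followed among them by Pcdh9 at 66.8 CPM (73.2%), Pcdh10 at 55.5 CPM (78.8%), Pcdh1 at 48.1 CPM (87.5%), Pcdh11x at 26.7 CPM (36.8%), Pcdh19 at 19.5 CPM (36.7%) and Pcdh7 at 13.2 CPM (23.7%). Pcdh8 and Pcdh18 were below 1 CPM. Pcdh20, outside the delta group, was at 4.92 CPM and in 21.6% of neurons. These shares depend on depth: thinned to 3000 UMIs per cell, 2 members, not 15, kept that share.

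The remaining members were rare. Cdh23 and Pcdh15, whose proteins form the tip links of hair cells, had 11 and 77 UMIs. The 7-domain cadherins Cdh16 and Cdh17 had 0 and 11, and for 0 of 1087 neurons the exact 95% interval reaches a share of 0.339%. Cdh26 had 3 and the endothelial Pcdh12 stood at 1.55 CPM.

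**Figure D1:**
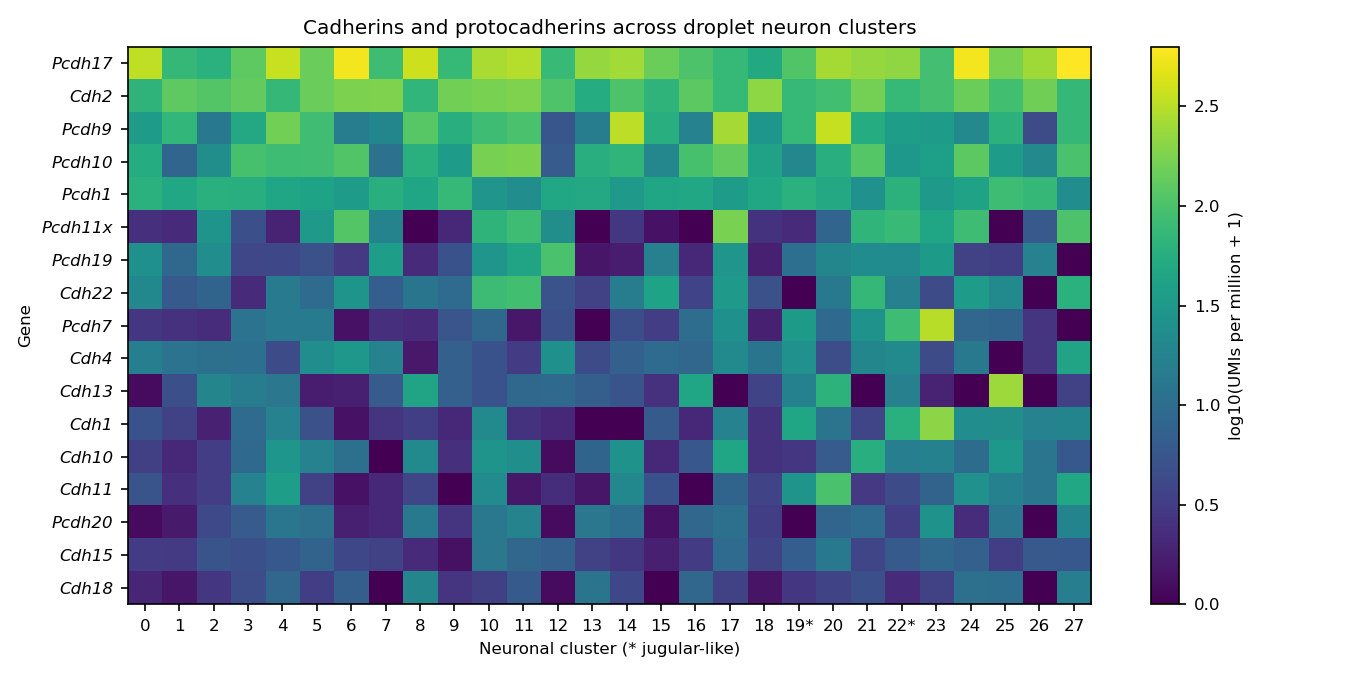
Level of the 17 members with at least 200 UMIs (rows, by overall level) in each of 28 droplet neuron clusters (columns; asterisks mark the 2 jugular-like clusters), as log10(CPM + 1). Pcdh17, Cdh2 and Pcdh1 are present throughout, while Pcdh7 and Cdh1 are highest in cluster 23 and Cdh13 in cluster 25.

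Most of the better-measured members were unevenly spread over neuron clusters. For the 17 members with at least 200 UMIs, the level in the leading cluster was 6.20 times that in all other neurons at the median, against 1.89 for the 11188 genes with as many UMIs. This sets the members beside all genes, not matched by level, as a description of 1 library. Pcdh7, Cdh1, Cdh13 and Pcdh9 stood among the 10 leading genes of a cluster, although no member was among the genes the clustering used.

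The sharpest pattern was in cluster 23, 20 neurons whose leading genes included Slc17a7, Calb1 and the mechanosensitive channel gene Piezo2. Pcdh7 reached 313.1 CPM there, 39.8 times the other neurons (41.4% of all its UMIs, in each of the cluster's cells). Cdh1 reached 205.4 CPM, 29.01 times the other neurons (33.9% of its UMIs, in 95% of cells). Both were next highest in the jugular-like cluster 22, Pcdh7 at 84.6 CPM and Cdh1 at 58.9 CPM. Cdh12 (30.6 CPM) and Pcdh20 (25.5 CPM) were also highest in cluster 23.

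Cdh13 reached 242.7 CPM in cluster 25, which has 11 neurons, 26.2 times the other neurons. That cluster held 14.4% of its UMIs, and Cdh13 also had a UMI in 73.9% of cells of cluster 20, 55% of cluster 12 and 54.8% of cluster 2. Satellite glia markers summed to 7119 CPM in that cluster, where neuronal clusters reached up to 7188 and satellite glia themselves 93063. Cdh13 had few UMIs in satellite glia (0.346 CPM), below its level in cluster 25. The part of glial RNA in the values of that cluster was not tested.

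Pcdh19, mutated in an X-linked epilepsy in humans, was highest in cluster 12, led by the proton-sensing receptor gene Gpr65 and Edn3. It reached 98.3 CPM there, 7.08 times the other neurons, with 33.5% of its UMIs and a UMI in 97.5% of the 40 cells. At a finer clustering resolution the share of its UMIs in the leading cluster was lower. Cluster 11 followed at 42.2 CPM. Cluster 7, led by Dbh and Mfap5, had 35.45 CPM and cluster 2, led by Sst and Ctxn3, 22.3 CPM. Cdh18 was low in clusters 12, 7 and 2, at 0.222, 0 and 1.74 CPM, and was highest in cluster 8, led by Rtp1 and Gal, at 17.6 CPM. Cdh10, at 0.222, 0 and 2.22 CPM in clusters 12, 7 and 2, was highest in cluster 21 at 55.1 CPM.

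Pcdh11x was highest in cluster 17 (169.2 CPM; led by Pappa2, Runx3 and Pvalb). Pcdh9 was highest in clusters 20 (359.8 CPM) and 14 (333.1 CPM), and stood at 4.67 CPM in cluster 12. Cdh11 was highest in cluster 20 as well, at 97.4 CPM. Cdh22 (89.04 CPM) and Pcdh10 (176.5 CPM) shared cluster 11, led by Tgm2 and Igf1, as their highest and cluster 10 as their second. Pcdh17 was highest in clusters 27 (628.0 CPM) and 6 (564.8 CPM), and Cdh4 in the same 2 clusters (42.2 and 29.9 CPM). Pcdh1 was the flattest, with 83.2 CPM in cluster 25, 1.74 times the other neurons. Cdh15 was highest in cluster 20 at 12.6 CPM, and Cdh2 in cluster 18.

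Several members were also found in other cells of the ganglion, as seen in cells of the unfiltered matrix. In 472 satellite glia (median 5340 UMIs), Cdh11 stood at 161.6 CPM, Pcdh10 at 137.1, Cdh19, a marker of the glial lineage, at 127.4, Cdh2 at 105.2, Cdh1 at 85.5 and Cdh15 at 48.1. Cdh2 was lower there than in neurons (118.4 CPM), and Cdh11, Cdh19, Cdh1, Cdh15 and Pcdh10 were higher. Pcdh9 was at 68.5 CPM in satellite glia against 66.8 in neurons, Pcdh7 at 57.8 against 13.2 and Cdh10 at 20.1 against 9.61. In endothelial cells, Cdh5 (VE-cadherin) stood at 590.4 CPM, Pcdh1 at 82.3 and Cdh13 at 65.6. Pcdh17 was second to Cdh5 there, with a UMI in 71.2% of the cells and a level above its 180.2 CPM in neurons. The neuronal UMIs of Cdh5 came mostly from cluster 10 (80.6%), where endothelial markers summed to 505.6 CPM against 22.3 to 106.4 in the other neuronal clusters. Cdh19 was highest in neuronal clusters 25 and 24, at 13.9 and 12.4 CPM, which had satellite glia markers at 7119 and 6228 CPM. Doublets were not removed, and the part of glial and endothelial RNA in these neuronal values was not tested.

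Jugular-like neurons, whose counterparts in the animal arise from neural crest rather than placodes, carried a different set. A member was counted as higher or lower where its CPM ratio passed 2-fold and the interval of the ratio left out 1. Of the 29 members with at least 20 UMIs, 9 were higher in jugular-like neurons, where 6.09% of all 14593 genes were. In turn 4 were lower, where 7.35% of all genes were.

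The 4 largest ratios fell on sparse members. Cdh9 had 14 UMIs in jugular-like and 9 in nodose-like neurons, a 29.3-fold ratio of CPM (11.8 to 76.8). Pcdh15 had 37 and 40 UMIs, a 17.4-fold ratio (10.85 to 27.98). Cdh8 (11.1-fold, 4.54 to 25.65) and Pcdh18 (10.6-fold, 6.06 to 18.05) followed. On more UMIs, Cdh1 was 51.3 against 8.37 CPM (6.13-fold, 5.14 to 7.29) and Pcdh7 58.7 against 10.8 CPM (5.45-fold, 4.63 to 6.39). Cdh12, Cdh6 and Cdh11 were the others, at 3.30-fold, 4.19-fold (4 and 18 UMIs) and 2.06-fold. The 2 jugular-like clusters differed. Cdh1 (58.9 and 43.7 CPM), Pcdh7 (84.6 and 32.45 CPM) and Pcdh18 (5.83 and 7.67 CPM) were present in both clusters 22 and 19. Pcdh15 (20.4 and 1.18 CPM), Cdh12 (12.8 and 1.18 CPM) and Cdh9 (6.998 and 1.18 CPM) came mostly from cluster 22, and Cdh6 only from it. Cdh11 was higher in cluster 19 (27.1 against 3.50 CPM), and Cdh8 was seen there (5.90 CPM) and not in cluster 22.

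The members that were lower were Pcdh10 (24.6 against 57.2 CPM, ratio 0.431, 0.343 to 0.535), Cdh22 (7.92 against 16.8 CPM, ratio 0.470, 0.308 to 0.688), Pcdh20 (1.17 against 5.12 CPM, ratio 0.229, 0.0621 to 0.593) and Pcdh12 (0 against 1.63 CPM, ratio up to 0.674). The abundant Pcdh17 (ratio 0.899) and Pcdh9 (0.809) lay within 2-fold. Jugular-like neurons were deeper, with a median of 72828 UMIs against 55638. Thinned to 3000 UMIs per cell, 2 members were higher and 1 lower, from fewer UMIs.

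**Figure D2:**
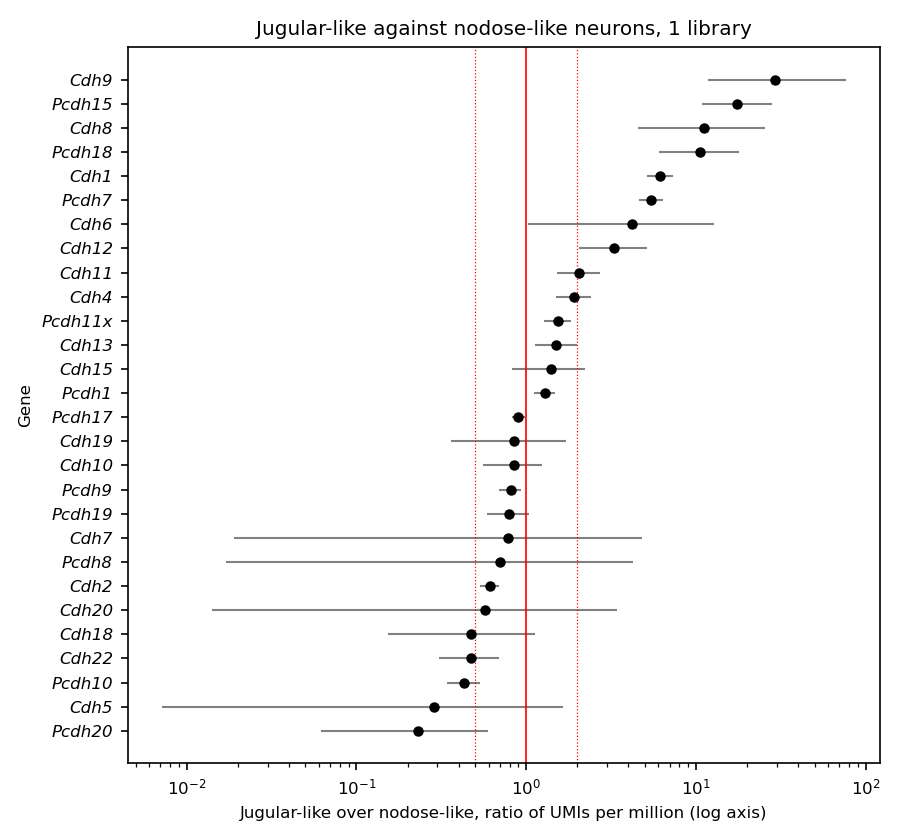
Ratio of CPM in 47 jugular-like to that in 1040 nodose-like droplet neurons (log axis) for 28 members with at least 20 UMIs; bars are 95% intervals for counting error in 1 library. Cdh9, Pcdh15, Cdh8 and Pcdh18 lie highest and Pcdh20 lowest; Pcdh12, with 0 UMIs in jugular-like cells, is not drawn.

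At 10 reads, 16 members were detected in at least 20% of passing cells, and a cell had 10 members at the median (0 to 18). In CPM per kilobase of exon, a scale on which genes can be set side by side, Cdh2 was the highest at 11.15, then Pcdh9 at 6.77, Cdh4 at 3.59, Cdh18 at 3.58, Cdh6 at 3.49 and Pcdh17 at 3.38. Cdh9 and Cdh16 reached 10 reads in no cell.

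Protocols ranked some members differently. Cdh6, a type II cadherin known from kidney and from subsets of retinal neurons, was detected in 60.4% of picked cells and ranked 5 of 35 per kilobase, but had 22 UMIs in all droplet neurons, rank 29. Cdh24 ranked 17 in picked cells and 34 in droplet neurons, with 1 UMI. Pcdh10 ranked 19 in picked cells and 4 in droplet neurons. Across the 35 members Spearman's rho between both levels was 0.68, a description over genes, and the cause of the differences was not tested.

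Each picked cell was matched to its closest droplet cluster, over 588 genes that held no member. The pattern over the clusters with enough picked cells carried over between protocols. Over the 11 clusters with at least 10 picked cells, Spearman's rho between picked and droplet level had a median of 0.83 over the 17 members with at least 200 UMIs (0.51 to 0.97). It was 0.97 for Cdh10, 0.94 for Pcdh10, and 0.93 for Cdh18 and Pcdh19. The lowest values were 0.51 for Pcdh1, 0.57 for Cdh15, and 0.59 for Cdh11 and Cdh22. These points share 1 droplet library and are given with no test. Among those 11 clusters, 9 of the 17 members had the same highest cluster in both protocols. Clusters 11, 20, 21, 23 and 25, which led several members in the droplet library, had too few picked cells to be compared. In picked cells Pcdh19 averaged 42.7 CPM in the 94 cells matched to cluster 12 and 4.78 in the 71 matched to cluster 2, while Cdh18 averaged 1.64 and 19.6. Cdh6 was highest in cells matched to the jugular-like cluster 22, as was Pcdh11x, and averaged 94.4 CPM in cells matched to cluster 2 and 0.113 in those matched to cluster 8.

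Some pairs of members were found in the same picked cells less or more often than independent detection gives. Pcdh19 and Cdh10 shared 10 cells where independence gives 34.2. Pcdh19 and Cdh18 shared 39 where it gives 77.85. Cdh18 and Cdh10 shared 69 where it gives 35.7, and Cdh18 and its chromosome neighbour Cdh12 shared 23 of the latter's 25 cells. Cdh6, on the same chromosome, was found with Cdh18 at 0.963 and with Cdh10 at 0.888 times the independent count, and with Pcdh19 at 1.26 times. These counts pool cells of all targets and carry no test.

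The main target comparison set the 8 Gast mice against the 13 Int mice. Each value below is a mouse's mean over its cells of log2(CPM + 1), and changes are on that scale, which understates changes of low genes. There were 20 members that passed the filter of 10 reads in at least 5% of cells and were tested among 12705 genes. Of these, 6 were higher in Gast (Cdh18, Pcdh11x, Cdh10, Cdh6, Pcdh10 and Pcdh1), where 9.04% of all genes were, and 2 were lower (Pcdh19 and Cdh4), where 5.72% were. The median change was 0.27 over the 20 and 0.07 over all genes.

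Pcdh19 gave the clearest separation. Its level ran from 0.34 to 1.79 in Gast mice (median 1.31) and from 2.05 to 4.99 in Int mice (median 3.70). It was the 1 member of 20 whose Gast and Int mice did not overlap, where 0.645% of all 12705 genes did not. It was lower in Gast by -2.23 (SE 0.27, limma adjusted p = 1.4e-06), and at 10 reads it was detected in 15.1% ± 10.5 of a Gast mouse's cells and 61.6% ± 21.9 of an Int mouse's (SD, n = 8 and 13).

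Cdh18 moved the opposite way. It ran from 1.55 to 5.67 in Gast mice (median 3.60) and from 0.63 to 3.29 in Int mice (median 1.33), so that the groups overlapped at their edges. All 8 Gast mice were above the Int median, the change was 2.29 (SE 0.33, limma adjusted p = 1.4e-05), and detection was 71.5% ± 23.8 against 21.2% ± 15.5 of cells.

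Its 2 neighbours on chromosome 15 that could be tested were also higher in Gast. Cdh10 ran from 0.91 to 2.86 in Gast (median 1.83) and from 0.00 to 1.71 in Int (median 0.60), a change of 1.35 (SE 0.21, limma adjusted p = 4.7e-05) with 8 of 8 Gast mice above the Int median. Cdh6 ran from 2.37 to 4.92 in Gast (median 4.60) and from 2.46 to 4.03 in Int (median 3.29), a change of 1.01 (SE 0.34, limma adjusted p = 0.0427) with 6 of 8 above. The Cdh6 call was lost on leaving out any of 15 mice, at an adjusted p of up to 0.104. Cdh12 fell below the filter and Cdh9 was near 0.

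Pcdh11x, a delta-1 protocadherin on the X chromosome, ran from 1.86 to 4.88 in Gast (median 3.29) and from 0.00 to 4.87 in Int (median 2.00). The groups overlapped widely, with 7 of 8 Gast mice above the Int median, and the change was 1.47 (SE 0.42, limma adjusted p = 0.0173). Pcdh19 and Pcdh11x are both X-linked and changed in opposite directions. The Y-linked Ddx3y was at 10 CPM or more in 4 of 8 Gast and 6 of 13 Int mice.

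The remaining calls were smaller. Pcdh10, a delta-2 protocadherin, rose by 0.69 (SE 0.19, limma adjusted p = 0.0137), from an Int median of 0.84 to a Gast median of 1.73, and without mouse 44 (GastP) the change was 0.53 at an adjusted p of 0.0792. With each cell thinned to 100000 reads it was 0.34 (adjusted p = 0.332). Pcdh1 rose by 0.68 (SE 0.23, limma adjusted p = 0.0476), but only 4 of 8 Gast mice lay above the Int median and leaving out any of 19 mice ended the call; without mouse 10 (GastP) the change was 0.40 (adjusted p = 0.261). Pcdh1 is also present in endothelial cells, and summed endothelial markers ran from 46.7 to 81.2 CPM in Gast and 29.95 to 52.3 in Int mice, while Cdh5 reached 10 reads in 2 picked cells. Their part in the Pcdh1 value was not tested.

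Cdh4 was lower in Gast, with 2.72 to 4.21 (median 3.89) against 3.62 to 5.17 in Int (median 4.61). All 8 Gast mice lay below the Int median, and the change was -0.92 (SE 0.25, limma adjusted p = 0.0135). Without mouse 9 it was -0.82 (adjusted p = 0.0581) and without mouse 10 it was -0.81 (adjusted p = 0.0527), both of code GastP. The other 12 tested members missed the threshold, among them the abundant Cdh2 (limma adjusted p = 0.991) and Pcdh17 (change 0.28, SE 0.22).

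**Figure D3:**
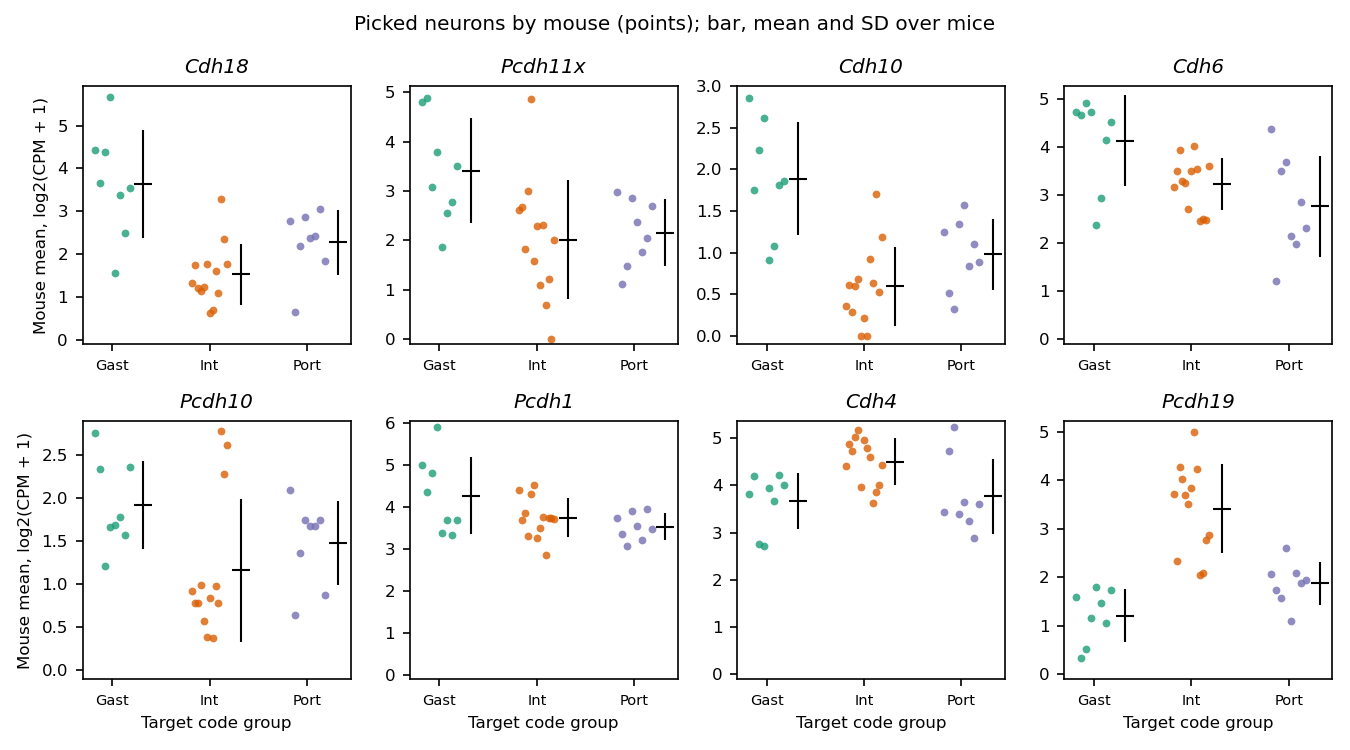
Mouse means of log2(CPM + 1) in picked neurons for the 8 members that passed the threshold in Gast against Int; each point is 1 mouse (8 Gast, 13 Int, 8 Port), and the bars show the mean and SD over mice. Pcdh19 is the panel where Gast and Int points do not overlap.

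Gast and Int mice differed in the neuron types that were picked. Cells matched to cluster 2 were 45.5% ± 20.6 of a Gast mouse's cells and 1.47% ± 3.79 of an Int mouse's, and cells matched to cluster 12 were 3.58% ± 8.12 and 40.35% ± 25.6. Cluster 7 made up 6.33% ± 6.89 and 29.35% ± 27.6. The jugular-like cluster 22, where picked Cdh6 and Pcdh11x were highest, made up 4.18% ± 5.03 of Gast and 0 of Int cells, and summed jugular-like markers had medians of 384.2 and 247.6 CPM. Each change above is therefore a mean over a different mix of types.

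The comparison was repeated within matched types, from each mouse's effect in a fit of single cells on matched cluster and mouse. None of the 20 members passed the threshold in that limma fit, in which 1.31% of all genes did. Of the 8 members called over all cells, all kept their sign, with smaller changes. Pcdh19 went from -2.23 to -0.54 (SE 0.20, unadjusted p = 0.0131, limma adjusted p = 0.185) and Cdh18 from 2.29 to 0.62 (SE 0.24, unadjusted p = 0.0155, adjusted p = 0.199). Cdh10 went from 1.35 to 0.80 (SE 0.21, unadjusted p = 0.000809, adjusted p = 0.0569). Cdh6 (0.23), Pcdh11x (0.57), Pcdh10 (0.10), Pcdh1 (0.47) and Cdh4 (-0.40) had adjusted p between 0.335 and 0.808.

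Averages over the cells of single types, pooled over mice, were also taken and are not the effects of that fit. In cells matched to cluster 12, Pcdh19 averaged 5.22 in 4 Gast cells, 5.30 in 62 Int cells and 4.52 in 16 Port cells on the log2 scale. In cells matched to cluster 2 it averaged 1.08 in 46 Gast cells and 1.91 in 16 Port cells, with 3.16 in 3 Int cells. Cdh18 averaged 3.75 in those 46 Gast cells, 2.63 in the 16 Port cells and 2.50 in the 3 Int cells, and 0.83 in the 62 Int cells of cluster 12. Few cells of a type came from the target that rarely had it, so these are descriptions.

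**Figure D4:**
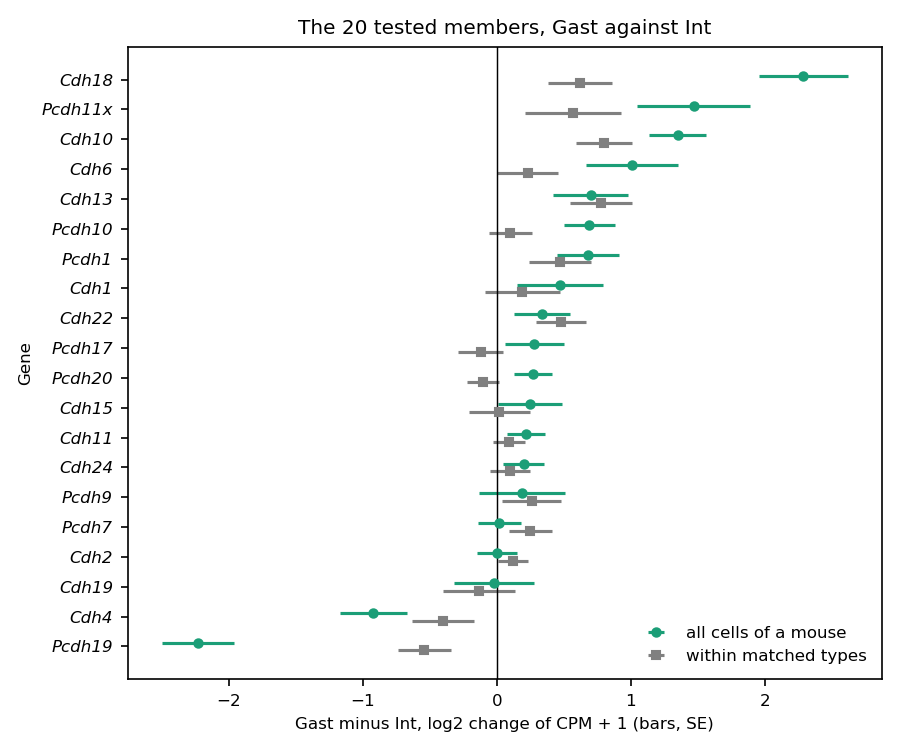
Change between Gast and Int (x axis, log2 scale, bars are SE) for the 20 tested members, over all cells of a mouse (circles) and within matched neuron types (squares). The changes of Pcdh19 and Cdh18 shrink from -2.23 to -0.54 and from 2.29 to 0.62.

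Among the Int codes, IntL stood apart in Pcdh10. The 3 IntL mice had 2.78, 2.28 and 2.62, and the 10 mice of the other Int codes 0.38 to 0.99 (median 0.79), with no overlap. The change was 1.81 (SE 0.27, limma adjusted p = 0.000266), and Pcdh10 was detected in 38.2% ± 5.24 against 7.83% ± 8.355 of cells. Pcdh20 was the other member higher in IntL, so that 2 of the 20 were, where 3.05% of all genes were. It had 1.34, 0.72 and 0.73 in IntL mice and 0.00 to 0.57 in the others (change 0.77, SE 0.21, limma adjusted p = 0.0251), but without mouse 33 the change was 0.56 at an adjusted p of 0.296. No member was lower, where 2.47% of all genes were, with Pcdh19 at -1.14 (adjusted p = 0.0888). Cdh18 had 3.29, 2.35 and 1.77 in IntL mice and 0.63 to 1.77 in the others, with a change of 1.25 that missed the threshold (adjusted p = 0.121). These 3 of 20 members had no overlap between IntL and the other Int mice, where 6.05% of all genes had none. For Cdh18 the nearest mice of both groups were equal at the decimals printed.

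Satellite glia markers moved with IntL too. They summed to 1934 to 2898 CPM in the IntL mice (median 2204) and 260.5 to 1243 in the others, again without overlap. Pcdh10 is high in satellite glia (137.1 CPM), as is Cdh19, which was 1.08 higher in IntL without passing the threshold (adjusted p = 0.152). Of the other members of satellite glia, Cdh1 was at 1.06 (limma adjusted p = 0.182) and Cdh11, the highest there, at 0.21 (adjusted p = 0.602). Cdh2 was at -0.51 (adjusted p = 0.163) and Cdh15 at -0.55 (adjusted p = 0.388). Pcdh9 (0.32), Pcdh7 (-0.01) and Cdh10 (0.71) did not pass the threshold either. Cells matched to cluster 4, a droplet cluster with glial markers at 7188 CPM and Pcdh10 at 85.1 CPM, were 13.2% ± 5.24 of IntL cells and 0 of the others'. Within matched types the Pcdh10 change was 1.03 (SE 0.23, limma adjusted p = 0.0590) and the Pcdh20 change 0.25 (adjusted p = 0.654). The part of glial RNA in these values was not tested.

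Across the 4 Int codes, the F test called Pcdh10 alone (limma adjusted p = 0.000962), where 9.85% of all genes were called. Across all 7 codes it called 9 members, where 22.3% of all genes were called: Pcdh19 (limma adjusted p = 1.6e-05), Pcdh10 (0.000211), Cdh18 (0.000309), Cdh10 (0.000885), Cdh22 (0.00553), Pcdh20 (0.0179), Pcdh9 (0.0407), Pcdh1 (0.0467) and Cdh4 (0.0482). Pcdh9 had its lowest mean in IntD, with mice at 3.07, 3.50 and 0.96, and its highest in Port at 4.62 ± 0.49 (n = 8). The IntD mouse at 0.96 was mouse 19, which had 4 cells. The mean of Pcdh19 by code ordered as IntD 4.37, IntM 3.44, IntP 3.31, IntL 2.57, Port 1.87, GastG 1.25 and GastP 1.14. Mice of neighbouring codes overlapped at each step of that order.

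**Figure D5:**
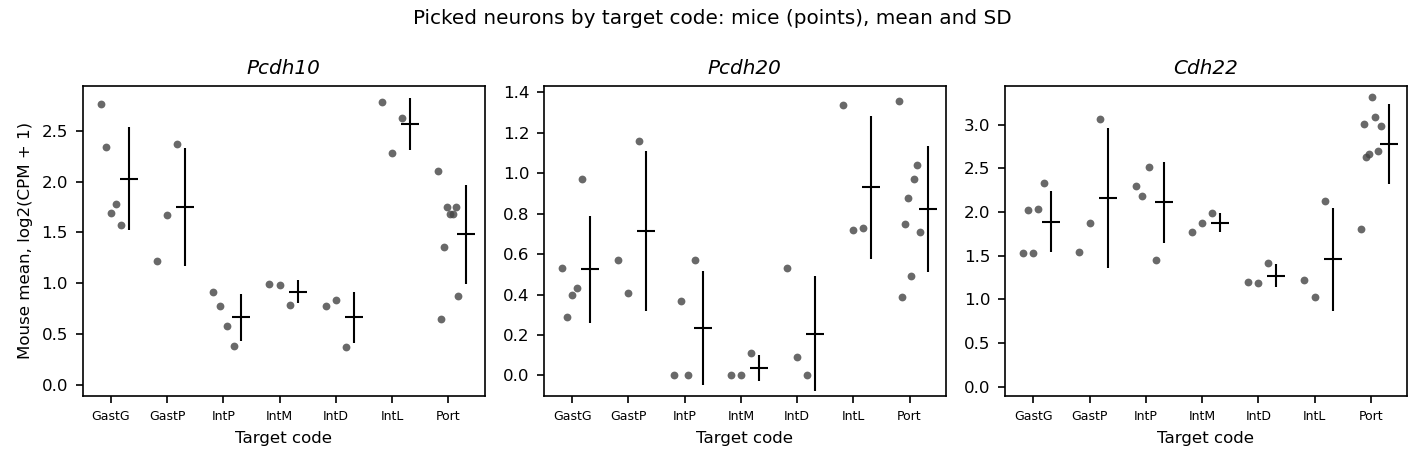
Mouse means of log2(CPM + 1) for Pcdh10, Pcdh20 and Cdh22 by target code in picked neurons; points are mice and bars the mean and SD. All 3 IntL mice lie above the other Int mice for Pcdh10 and Pcdh20, and 7 of 8 Port mice lie above the median of all other mice for Cdh22.

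Port was compared with the mean of Gast and Int. Cdh22, a type II cadherin of brain and pituitary, was the 1 member higher in Port, where 2.05% of all genes were, and no member was lower, where 2.95% were. It ran from 1.81 to 3.32 in the 8 Port mice (median 2.84) and from 1.03 to 3.06 in the 21 others (median 1.88), with 7 of 8 Port mice above that median. The change was 0.92 (SE 0.19, limma adjusted p = 0.0122), and within matched types 0.62 (adjusted p = 0.0690). Cells matched to cluster 15, in which picked Cdh22 was highest among matched clusters, were 9.64% ± 9.80 of Port and 3.37% ± 5.25 of other cells. Transcripts of nerve injury also moved with Port, summing to 128.3 to 7612 CPM in Port mice, 80.6 to 1998 in Gast and 54.3 to 407.3 in Int mice. Without the 4 mice of high injury transcripts (Port mice 21, 22 and 27 and GastP mouse 44) the Cdh22 change was 1.21 (limma adjusted p = 0.00219). Mouse 21, left out there, had the lowest Cdh22 of the Port mice, at 1.81. The part of injury in the Cdh22 value was not tested. The call was lost with edgeR on summed reads (0.84, adjusted p = 0.0885) and in mice of at least 8 cells (0.92, adjusted p = 0.0770). Cdh6 was at -0.98 (adjusted p = 0.0603) and Pcdh9 at 0.73 (adjusted p = 0.126) without passing the threshold.

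GastG and GastP were not told apart in these genes. None of the 20 members passed the threshold in limma, where 0% of all 12705 genes did, and edgeR's quasi-likelihood test on summed reads called 0 members as well. At an unadjusted p under 0.05 there were 2 members and 548 genes. The 2 were Cdh18, with a change of -1.44 (SE 0.52, unadjusted p = 0.0102), and Pcdh1, with -0.84 (SE 0.37, unadjusted p = 0.0292).

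The 15 members too sparse in picked cells to be tested were Cdh3, Cdh5, Cdh7, Cdh8, Cdh9, Cdh12, Cdh16, Cdh17, Cdh20, Cdh23, Cdh26, Pcdh8, Pcdh12, Pcdh15 and Pcdh18. Cdh12 was detected in 5.57% of all passing cells, the most among them. Cdh8, Cdh9, Pcdh15 and Pcdh18, which had the largest jugular-like ratios in the droplet library, were at 10 reads in 2, 0, 8 and 12 picked cells.

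Genes that work with cadherins were taken from 4 lists. Over all genes 9.04% rose and 5.72% fell in Gast, and each Gast count below is to be read against these shares. For IntL the shares were 3.05% and 2.47%, and for Port 2.05% and 2.95%. Of 14 catenins and linkers, 12 were tested and 4 rose in Gast, with 0 lower. The largest was Ctnnd2 (delta-catenin, change 1.21, limma adjusted p = 5.7e-05), then Ctnna1 (alpha-E-catenin, 1.09, adjusted p = 3.0e-07). Among the partners named here, only Ctnna1 also passed within matched types (change 0.44, limma adjusted p = 0.0243). One catenin, Ctnna2 (alpha-N-catenin), rose in IntL by 0.47 (adjusted p = 0.00616). The list's median change in Gast was 0.19.

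Of the 11 tested genes of the wider cadherin superfamily, 3 rose and 1 fell in Gast. Cdhr1 (0.95, limma adjusted p = 0.0378) and the calsyntenin Clstn2 (0.89, adjusted p = 0.0273) rose, and the giant cadherin Fat4 fell (-0.53, adjusted p = 0.0276). Within matched types none of the 3 passed, with Cdhr1 at -0.03, Clstn2 at 0.29 and Fat4 at -0.27 (limma adjusted p = 0.967, 0.621 and 0.494). Clstn3 rose in Port (0.72, adjusted p = 0.0133), and Clstn2 fell in IntL (-1.43, adjusted p = 0.0306).

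Of 11 genes of the WAVE actin complex and other effectors of delta protocadherins, 2 rose in Gast, Taok2 (0.50, limma adjusted p = 0.00275) and the WAVE subunit Nckap1 (0.48, adjusted p = 0.0116), neither of which passed within matched types (adjusted p = 0.540 and 0.102). Of the 53 tested clustered protocadherins, 2 rose in Gast, a smaller share than over all genes, Pcdhgb4 (0.56, limma adjusted p = 0.0101) and Pcdhga12 (0.67, adjusted p = 0.0499), and 1 in IntL, Pcdhgc4 (0.97, adjusted p = 0.0286). These copies share sequence, so reads could be split between them.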

How the data were processed

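Droplet values are UMI counts per gene and barcode as deposited; Cell Ranger 2.0.1 and mm10 are named in the submitters' processing notes. Picked-cell values are log2 read values as deposited by the authors, in which a floor of log2(0.02) stands for no read. Of member values above the floor, 99.8% were whole reads within 1 part in 1000. The aligner and counter of the picked cells are not given in the sources used here. Of 452 picked cells with values, 449 had at least 2000 genes and 394 entered the comparisons. One column of the picked-cell table matched no sample and was not used.

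The members and lists were chosen with earlier results of these data known. Droplet cells with at least 1000 UMIs and 500 genes were clustered with scanpy 1.11.5 and leidenalg 0.10.2 (Python 3.11.15; 2000 variable genes, 30 components, resolution 1.5 for neurons), and no doublets were removed. Picked reads were scaled to CPM, and mouse means of log2(CPM + 1) were fitted with limma 3.58.1 (R 4.3.3) over 12705 genes with Benjamini-Hochberg adjustment and a threshold of 0.05. Mice with at least 4 cells entered, which left out 1 Port mouse of 2 cells. Summed reads were tested with edgeR 4.0.16 as an alternative. The fit was also run on simulated cells that had no mix of neuron types, so that run does not bear on differences in the mix. Every member past the threshold in a target comparison is named, as is every member with a UMI in at least 20% of droplet neurons, with the leading cluster of each member of at least 200 UMIs.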

Additional observations from a re-analysis of the deposited data

Results flagged for a closer look

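In Port, Cdh22 was at 1.81 in mouse 21, below the other 7 mice, of which the nearest was at 2.63 (n = 8). In IntP, Pcdh19 was at 2.33 in mouse 12, below the other 3 mice, of which the nearest was at 3.51 (n = 4). These were 2 outlying mice among 33 groups checked by Dixon's criterion at 95%, a rate near the 1 in 20 groups that chance gives. The cells coded na belonged to no comparison, and in these 53 cells of 4 mice 17 members reached 10 reads in at least 20% of cells. Cdh2 did so in 98.1% of them, Pcdh19 in 47.2% and Cdh18 in 45.3%.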

How the results depend on the processing

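None of the 11 member calls changed sign. Of the partner genes, Cdhr1 went from 0.95 to -0.03 within matched types. Of 8 members called in Gast against Int, 5 were called in mice of at least 8 cells, 4 with cells thinned to 100000 reads and 0 within matched types. In Port (1 member) the count was 2 with no filter beyond any read in 3 mice and 6 in mice numbered up to 39. It was 0 with edgeR, in mice of at least 8 cells, thinned or within types. The limit of 39 kept only Port mice 21, 22 and 27, all of high injury transcripts. All mice with higher numbers were of Gast or Port codes. In IntL (2) the count was 1 with the filter of 20% of cells, in mice of at least 8 cells and thinned. It was 0 within types. The F test over 4 Int codes (1) gave 2 at a pseudocount of 0.1 or 10, with no filter, without 4 mice of high injury transcripts or thinned, 3 with edgeR and 0 within types. The F test over 7 codes (9) gave 5 in mice of at least 8 cells, 4 thinned and 1 within types. Leaving out each mouse in turn gave 5 to 8 members for Gast against Int, 1 to 5 for Port, 0 to 0 for GastG against GastP, 1 to 3 for IntL, 1 to 2 for the 4 Int codes and 6 to 10 for the 7 codes. In the droplet library thinned to 3000 UMIs, members in at least 20% of neurons went from 15 to 2, members higher in jugular-like neurons from 9 to 2 and lower from 4 to 1. Members detected in at least 20% of picked cells went from 16 at 10 reads to 2 at 100. For these changes the cause was not tested. At resolution 1 the share of UMIs in the leading cluster moved for 11 of 17 members, and at resolution 2 for 3 of 17. Among the latter was Pcdh19, with a share of 6.10% at resolution 2 against 33.5% at the main resolution. No paired analysis was possible because each mouse carried a single target code.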

Other observations

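In the cells coded na, Cdh18 and Pcdh19 differed between mice. Cdh18 was at 2.09, 1.33, 4.01 and 2.58 in mice 31, 32, 36 and 37, and Pcdh19 at 2.84, 3.25, 0.94 and 2.49, as mouse means of log2(CPM + 1). Mouse 36 had the highest Cdh18 and the lowest Pcdh19 of the 4.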
